A study of Homo sapiens with 22 samples.

Results

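The exon usage of HEK293T cells after HNRNPG knockdown KD1 was taken from the authors' deposited table. All of its 2635 exonic bins in 636 gene models were used, so no listed bin was left out. By its title the table covers exons in m6A-containing genes, and bin numbers skip within models, so it does not hold every exon. All bins below means all listed bins. HEK293T is an established human embryonic kidney cell line, here the ATCC stock CRL-11268. The KD1 group carries the label HNRNPG Knockdown and has 2 libraries, and its control is labelled wild type and has 2 libraries. A further knockdown group, KD2, has 2 libraries and was set against the same 2 control libraries, so it shares its control with KD1 and is given only beside it. The labels do not say how KD1 and KD2 differ, how either knockdown was made, or whether a group had 1 culture or several. The series has 22 libraries, of which 12 are RNA-seq libraries in 6 groups of 2, and its 10 crosslinking libraries were not analysed here.

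HNRNPG, the product of the RBMX gene, binds RNA in the nucleus and helps to decide which exons are kept during pre-mRNA splicing. N6-methyladenosine (m6A) is a methylated base of mRNA that can loosen local RNA structure and so change which proteins bind nearby. Exon usage is the share of a gene's RNA that covers a given stretch of exon, so a value describes a stretch against the rest of its own gene and not the level of the gene.

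Each value is the log2 ratio of exon usage in the knockdown over that in the control, with the sign of the deposited column turned, so that a positive value means more use of the bin in the knockdown. Exons are divided into exonic bins wherever an annotated exon begins or ends, and the bins are numbered as in the table. The models are AceView gene models on the human genome build hg19, and 126 of the 636 join several neighbouring genes under 1 name, written with "and". The table gives 1 ratio per bin and knockdown, with no value per library and no p-value. No test was therefore possible, the spread between the 2 libraries of a group and the depth are unknown, and a bin is counted as past the size from 0.5 upwards in absolute log2. Coding and untranslated stretches were not told apart. RBMX and its relatives had 0 listed models, and the level of RBMX was not analysed here, so the knockdown itself was not checked.

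More bins were lower than higher in KD1. Of the 2635 bins, 396 were past 0.5 in KD1, which is 15.0% of all bins, with 158 bins (6.00%) higher and 238 bins (9.03%) lower in the knockdown than in the control. At an absolute log2 of 1 or more there were 61 bins (2.31%), of which 17 (0.645%) were higher and 44 (1.67%) were lower. In KD2, 572 bins (21.7%) were past 0.5, with 205 (7.78%) higher and 367 (13.9%) lower. The median of all bins was -0.04 in KD1 and -0.06 in KD2. Over gene models the KD1 medians lay above 0 in 270 models and below 0 in 364. The 396 bins belonged to 229 models, of which 84 had higher bins only, 135 had lower bins only and 10 had both.

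The lowest bins of KD1 lay in genes of unlike functions. Those described next are the 15 lowest, 1 per single-gene model, among bins of 20 bp or longer in the authors' deposited table. NUCKS1, a nuclear chromatin-associated phosphoprotein, had the lowest of them, bin 6 at chr1:205688805-205689628 on the minus strand, with -2.61 in KD1 and -0.51 in KD2. This bin is 824 bp long and ends 36 bp from a listed m6A site of the gene. The other 3 listed bins of NUCKS1 lay between 0.01 and 0.04 in KD1, so bin 6 alone set the range of 2.65 for that model.

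CNIH4, a cornichon-family protein that helps receptors leave the endoplasmic reticulum, had -2.47 in KD1 and -0.22 in KD2 at bin 28 (chr1:224564596-224564751, plus strand). NUDT5, which hydrolyses ADP-ribose, had -2.23 in KD1 and -0.82 in KD2 at bin 26 (chr10:12227953-12228227, minus strand), its 5′-most listed bin. RPL34, a ribosomal protein, had -2.19 in KD1 and -2.78 in KD2 at bin 16 (chr4:109543361-109543670, plus strand). RPL34 bin 16 was thus low in both knockdowns, whereas the low value of CNIH4 was seen in KD1 and not past the size in KD2. The other 6 listed bins of RPL34 lay between -0.35 and 0.09 in KD1.

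RNA-binding proteins were also among the lowest 15. RBM39, an SR-like protein that takes part in splice site choice, had -2.15 in KD1 and -0.62 in KD2 at bin 81 (chr20:34323357-34324434, minus strand). The bin is 1078 bp long, holds a listed m6A site and is the 5′ one of the 2 listed bins of RBM39, the other of which had -0.40 in KD1. HNRNPR, a member of the hnRNP family of nuclear RNA-binding proteins, had -1.75 in KD1 and -0.38 in KD2 at bin 16 (chr1:23648157-23648183, minus strand), which is 27 bp long. The 2 other listed bins of HNRNPR had 0.15 and 0.06 in KD1.

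ZNF664, a zinc finger protein, had -2.02 in KD1 and -0.99 in KD2 at bin 56, which is 2903 bp long and lies 3′ of all 5 listed sites of the gene. SETMAR, in which a histone methyltransferase domain is fused to a transposase domain, had -1.89 in KD1 and -2.02 in KD2 at bin 27, its only listed bin, of 3301 bp. C2CD3, a centriole protein needed for cilia, had -2.01 in KD1 and 0.53 in KD2 at bin 80, a bin of 37 bp, so the sign was opposite in the other knockdown. It is the 5′-most listed bin of C2CD3, and the next 5 bins in the direction of transcription lay between 0.34 and 0.43 in KD1. SPATA2, an adaptor in TNF signalling, had -1.60 in KD1 and -0.71 in KD2 at bin 4.

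The remaining low bins were closer to -1. NDUFS8, a subunit of respiratory complex I, had -1.32 in KD1 and 0.19 in KD2 at bin 33. PSMB7, a catalytic subunit of the proteasome, had -1.30 in KD1 and -2.14 in KD2 at bin 5, and all 4 of its listed bins were lower in KD1, between -1.30 and -0.72. PKP4, a plakophilin of cell junctions, had -1.26 in KD1 and -1.002 in KD2 at bin 75. RPL31, another large-subunit ribosomal protein, had -1.25 in KD1 and -0.78 in KD2 at bin 43, the 3′-most of its 12 listed bins. ARFIP2, which binds ARF and Rac GTPases, had -1.23 in KD1 and -1.88 in KD2 at bin 20. Of the 15 low bins, those of C2CD3 and NDUFS8 were above 0 in KD2.

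The highest bins were smaller in size than the lowest. PRPF8, the central protein of the spliceosome's catalytic core, had the highest value among single-gene models, with 1.55 in KD1 and 0.92 in KD2 at bin 48 (chr17:1576862-1577039, minus strand). That bin is 178 bp long, lies between listed m6A sites and is 68 bp from the nearest of the gene's 6. ZNF655, a zinc finger protein, followed with 1.50 in KD1 and 0.80 in KD2 at bin 70 (chr7:99202009-99202090, plus strand). FDXR, the mitochondrial ferredoxin reductase, had 1.20 in KD1 and 1.03 in KD2 at bin 16 (chr17:72860190-72860269, minus strand), the 1 bin listed for it. GRAMD1A, a sterol transport protein of the endoplasmic reticulum, had 1.14 in KD1 and 0.50 in KD2 at bin 24, while its other 7 listed bins lay between -0.22 and 0.18 in KD1.

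RAN, the GTPase that drives import and export of nuclear cargo, had 1.05 in KD1 and -0.58 in KD2 at bin 17 (chr12:131357510-131357547, plus strand), a bin of 38 bp. It was the bin of the 15 highest whose sign was opposite in KD2. BSG (basigin), a chaperone of lactate transporters, had 1.01 in KD1 and 1.58 in KD2 at bin 5. LDHA, lactate dehydrogenase A, had 1.00 in KD1 and 0.91 in KD2 at bin 17, and the abutting bins 18 and 19 had 0.89 and 0.82 in KD1. The 3′-most listed bin of LDHA, bin 28, had -0.22 in KD1.

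The other high bins lay just under 1. PPM1A, a protein phosphatase, had 0.99 in KD1 and 0.21 in KD2 at bin 26. TUBA1B, an alpha-tubulin, had 0.98 in KD1 and 0.75 in KD2 at bin 25, and tubulin genes have near-identical copies between which reads may have been split. LCORL, a DNA-binding protein, had 0.97 in KD1 and 0.92 in KD2 at bin 5, a bin of 2374 bp. NFE2L2, the oxidative stress transcription factor NRF2, had 0.93 in KD1 and 0.23 in KD2 at bin 52. JMJD4, a hydroxylase of the translation release factor, had 0.93 in KD1 and 0.39 in KD2 at bin 25. MAPK9, the stress kinase JNK2, had 0.92 in KD1 and 0.56 in KD2 at bin 14. EIF3K, a subunit of translation initiation factor 3, had 0.91 in KD1 and 0.01 in KD2 at bin 21. C18orf10, now named TPGS2 and part of the tubulin polyglutamylase complex, had 0.88 in KD1 and 0.61 in KD2 at bin 5.

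**Figure D1:**
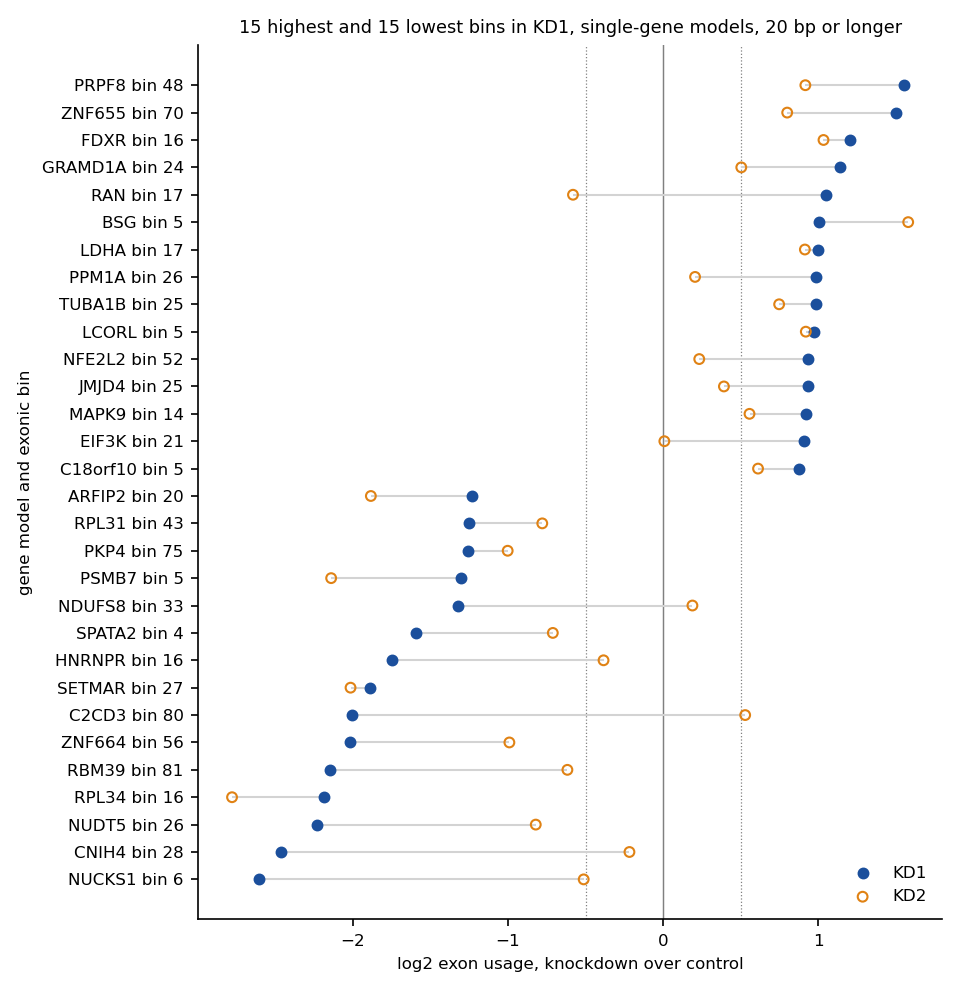
The 15 highest and 15 lowest bins of KD1, 1 per single-gene model, as log2 exon usage of knockdown over control on the horizontal axis. Filled points are KD1 and open points KD2, which share their control libraries. Dotted lines mark 0.5 in either direction. C2CD3, NDUFS8 and RAN have their KD2 point on the other side of 0.

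In some models the differences ran over several neighbouring listed bins. The low bins of NUCKS1 and RPL34 were instead alone among the listed bins of their models, and bins not listed could not be seen. CNIH4 had 12 listed bins, all below 0 in KD1. Its first 4 in the direction of transcription had -0.55, -0.52, -0.52 and -0.86, the next 7 lay between -2.47 and -1.91, and the last, bin 36, had -0.24. In KD2 the same 12 bins lay between -0.26 and 0.12, so the low block was not past the size there. The block of bins 24 to 31 was the longest stretch of abutting bins past the size in 1 direction, with 8 bins over 2531 bp.

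In DDB2, which recognises ultraviolet damage in DNA, the 6 bins at the 5′ end lay between 0.14 and 0.30 in KD1 and between 0.14 and 0.31 in KD2. Of the 12 bins that follow, 9 were at or beyond -0.61 in KD1, and bins 56 and 57, each of 1 bp, had the lowest value of -1.36. Bin 49 stood apart at 0.12, and the last bin, of 640 bp, had -0.14. The listed m6A site of DDB2 lies in bin 13, its first listed bin, 19968 bp before bin 38, where the values turn negative.

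ZNF655 went the other way. Its first 3 listed bins had -0.34, -0.02 and 0.02 in KD1, the next 4 lay between 1.42 and 1.50, and the last 3 lay between 0.82 and 0.97. In KD2 the same 4 bins lay between 0.80 and 0.95. C18orf10 had 5 bins between -0.23 and -0.13, then 6 abutting bins between 0.75 and 1.02, then 3 between 0.06 and 0.16. Its high block begins 9863 bp from the nearest listed m6A site, and 2 of the low bins at the 5′ end hold a site.

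**Figure D2:**
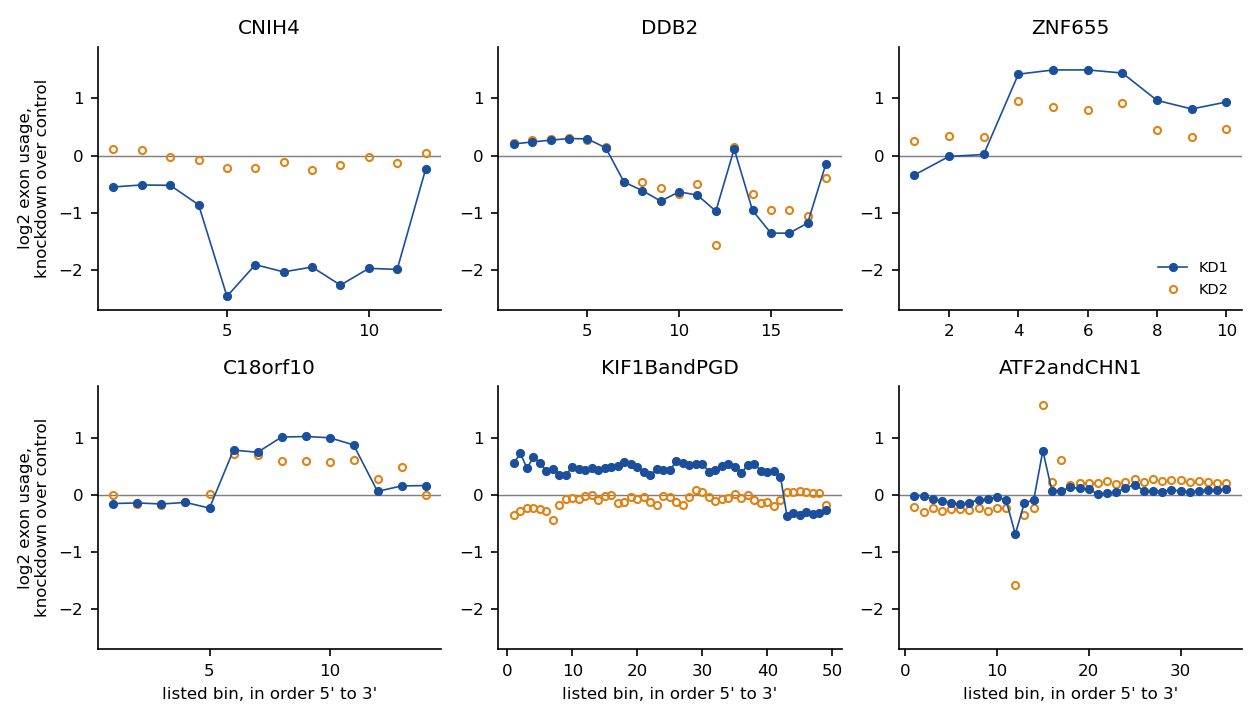
Log2 exon usage of knockdown over control for every listed bin of 6 models, in order from 5′ to 3′. Filled joined points are KD1, open points KD2. CNIH4 and DDB2 show a low block, ZNF655 and C18orf10 a high block, and the joined models KIF1BandPGD and ATF2andCHN1 a single change of side along the model.

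Bins that abut were nearly alike, so bins of a model are not independent observations. The 778 abutting pairs differed by a median of 0.05 in KD1, and 15 of them had the same value, while the 1221 neighbouring pairs with a gap differed by a median of 0.11. When abutting bins past the size in 1 direction were joined, the 396 bins formed 297 stretches, 117 higher and 180 lower. Of these, 58 held several bins, 157 bins in all. BSG bins 5 and 6 are such a pair, both at 1.01, and bin 6 is 1 bp long.

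Other stretches of 3 or more bins, chosen after their values were seen, were found on both sides of 0. ARIH2, a ubiquitin ligase, had bins 21 to 25 between -1.02 and -0.62 in KD1 and between 0.19 and 0.41 in KD2, opposite in sign throughout. ACTG1, the cytoplasmic gamma-actin, had bins 48 to 51 between 0.86 and 0.93 in KD1 and between 0.56 and 0.65 in KD2. These 4 bins cover 22 bp, and actin genes have near-identical copies. M6PR, a mannose 6-phosphate receptor, had bins 1 to 4 between -0.82 and -0.64 in KD1 and between -2.41 and -1.46 in KD2. ATPIF1, the inhibitor of ATP synthase, had bins 7 to 9 between -0.71 and -0.61 in KD1 and between -0.48 and -0.31 in KD2, and its bin 8 holds a listed m6A site.

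The 10 models with bins past the size on both sides comprised 6 single-gene models, namely C1orf57, ENAH, MBD5, NAA50, RALGAPA1 and TXNL4A. In ENAH, an actin regulator, bin 28 had 0.75 in KD1 and 1.01 in KD2, bin 24 had 0.71 in KD1 and -0.18 in KD2, and bin 14, of 63 bp, had -0.57 in KD1 and -1.56 in KD2. In NAA50, an N-terminal acetyltransferase, bins 15 to 17 lay between -0.87 and -0.64 in KD1 and between -0.10 and -0.05 in KD2, and bin 7 had 0.60 in KD1 and 0.58 in KD2. In MBD5, which has a methyl-CpG-binding domain, bin 18 had 0.81 in KD1 and -0.20 in KD2, bin 21 had -0.77 in KD1 and -0.69 in KD2, and bin 26 had -0.67 in KD1 and -0.25 in KD2. RALGAPA1, a GTPase-activating subunit for Ral proteins, had 0.64 in KD1 and 1.11 in KD2 at bin 14, and -0.82 in KD1 and -7.37 in KD2 at bin 60. TXNL4A, a protein of the U5 small nuclear ribonucleoprotein, had 0.52 in KD1 and 0.84 in KD2 at bin 18, and -0.94 in KD1 and -0.01 in KD2 at bin 34.

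Among long bins, lower ones outnumbered higher ones. Of the 421 bins of 1000 bp or more, 21 were higher and 45 lower past 0.5, with a median of -0.12. Of the 559 bins from 300 bp to under 1000 bp, 29 were higher and 68 lower, with a median of -0.06. Bins from 100 bp to under 300 bp, 714 in all, had 47 higher and 53 lower and a median of 0.00. The 699 bins from 20 bp to under 100 bp had 41 higher and 49 lower and a median of 0.00, and the 242 bins under 20 bp had 20 higher and 23 lower and a median of 0.04.

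At 300 bp the 980 longer bins had 50 higher and 113 lower, in 41 and 88 models, and the 1655 shorter bins had 108 higher and 125 lower. The share past 0.5 was 16.6% in the longer and 14.1% in the shorter bins, beside 15.0% of all bins. In KD2 the longer bins had 76 higher and 150 lower and the shorter bins 129 higher and 217 lower, so the 2 classes were more alike in direction there than in KD1. At an absolute log2 of 1 or more, 18 of the longer bins were past the size, and 0 of them were higher. The 2 kinds of bin were also compared within models. In the 294 models with bins of both kinds, the median of the longer bins minus that of the shorter was below 0 in 165 models and above 0 in 129, with a median of -0.04. That median was -0.01 with the limit between long and short bins at 100 bp and -0.07 in single-gene models alone. In KD2 it was below 0 in 184 and above 0 in 109 models and at 0 in 1, with a median of -0.07. Counts per bin rise with bin length, but the counts behind these ratios are not analysed here.

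**Figure D3:**
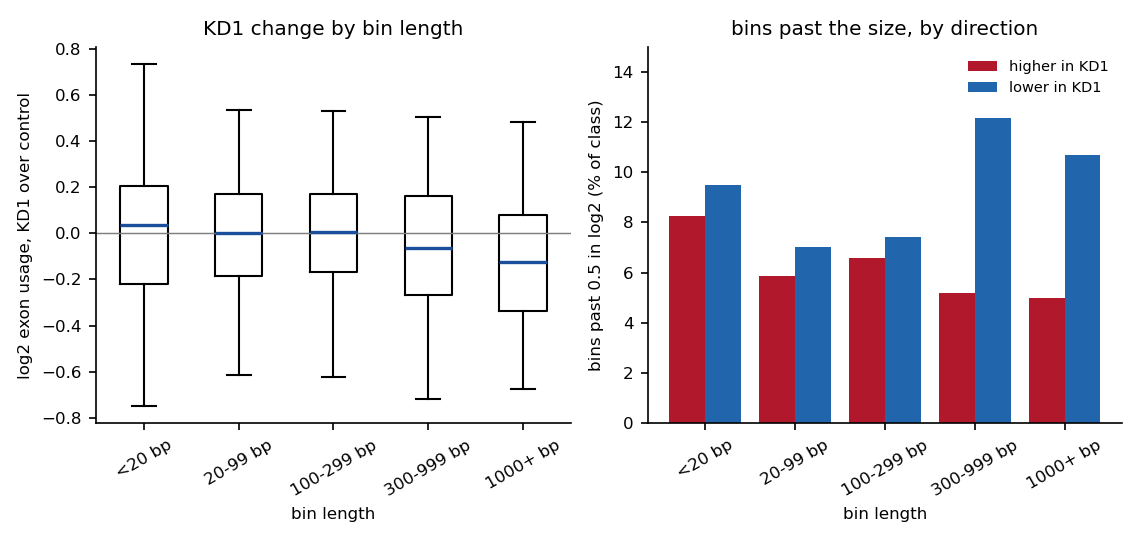
KD1 by bin length. Left, log2 exon usage of KD1 over control, with boxes at the quartiles, a line at the median and whiskers from the 5th to the 95th percentile. Right, the percentage of bins of each class past 0.5 that were higher or lower in KD1; among bins from 300 bp to under 1000 bp, 29 were higher and 68 lower.

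The listed m6A sites number 1445, and every model has at least 1 of them on the strand of its bins. By its title the table was limited to m6A-containing genes, so a site in every model follows from that selection. A site lay inside 96 bins of 85 models, of which 3 were higher and 13 lower past 0.5, with a median of -0.03. The 2539 bins without a site had 155 higher and 225 lower and a median of -0.04. The share past 0.5 was 16.7% with a site inside and 15.0% without, so the 2 classes were close in share and in median. In KD2 the bins with a site inside had 9 higher and 10 lower, so the split of 3 against 13 was not seen there. Among bins with a nearest site up to 500 bp away, 237 in all, 10 were higher and 12 lower (9.28% past 0.5). From there up to 5000 bp, 740 bins had 42 higher and 63 lower (14.2%). The 1562 bins farther away had 103 higher and 150 lower (16.2%), beside 15.0% of all bins. In KD2 the shares of these 3 classes were 22.8%, 22.6% and 21.3%, beside 21.7% of all bins. The low share within 500 bp was thus not seen in KD2.

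Among bins with a site inside, the lowest was RBM39 bin 81, described above. ATG12, the ubiquitin-like protein of autophagy, had -0.80 in KD1 and -0.37 in KD2 at bin 24 (chr5:115170859-115171635, minus strand). RBM26, an RNA-binding zinc finger protein, had -0.73 in KD1 and 0.45 in KD2 at bin 76, which is 2423 bp long in a gene with 12 listed sites. ATPIF1 bin 8 had -0.61 in KD1 and -0.36 in KD2. The joined model KIAA0100andSGK494andSPAG5 had -0.89 in KD1 and -0.28 in KD2 at bin 90.

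The 3 bins with a site that were higher past 0.5 lay in HP1BP3, C1orf57 and C11orf59. HP1BP3, a heterochromatin-binding protein, had 0.67 in KD1 and -0.18 in KD2 at bin 32 (chr1:21102019-21102148, minus strand). C1orf57, now NTPCR, a nucleoside triphosphatase, had 0.63 in KD1 and 0.86 in KD2 at bin 20 (chr1:233112206-233113271, plus strand). C11orf59, now LAMTOR1, the lysosomal anchor of the Ragulator complex, had 0.55 in KD1 and 0.93 in KD2 at bin 2 (chr11:71796745-71797490, minus strand). C16orf57, now USB1, an exonuclease that trims U6 RNA, came next with 0.48 in KD1 and -0.04 in KD2 at bin 32, and NFS1andCPNE1andRBM12 had 0.43 in KD1 and 0.24 in KD2 at bin 13.

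Bins were also divided by the side of the sites on which they lie. The 1361 bins 3′ of all listed sites of their model had 78 higher and 149 lower, with a median of -0.06. The 944 bins 5′ of all sites had 65 higher and 64 lower, with a median of -0.04, and the 234 bins between sites had 12 of each. Their shares past 0.5 were 16.7% on the 3′ side, 13.7% on the 5′ side and 10.3% between sites, beside 15.0% of all bins. In KD2 these shares were 21.4%, 21.4% and 25.6%, beside 21.7% of all bins. Length moved with side. Among the 605 bins of 300 bp or more that lay 3′ of all sites, 26 were higher and 78 lower, with a median of -0.12, and among the 237 long bins 5′ of all sites 15 were higher and 17 lower. The same 2 groups of long bins in KD2 had 32 higher and 91 lower on the 3′ side, and 24 higher and 39 lower on the 5′ side. Among bins under 300 bp, the 756 on the 3′ side had 52 higher and 71 lower in KD1. The 707 on the 5′ side had 50 higher and 47 lower. In KD2 these shorter bins had 53 higher and 115 lower on the 3′ side, and 60 higher and 79 lower on the 5′ side. Lower bins thus outnumbered higher ones among the shorter 3′ bins in KD2 too.

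**Figure D4:**
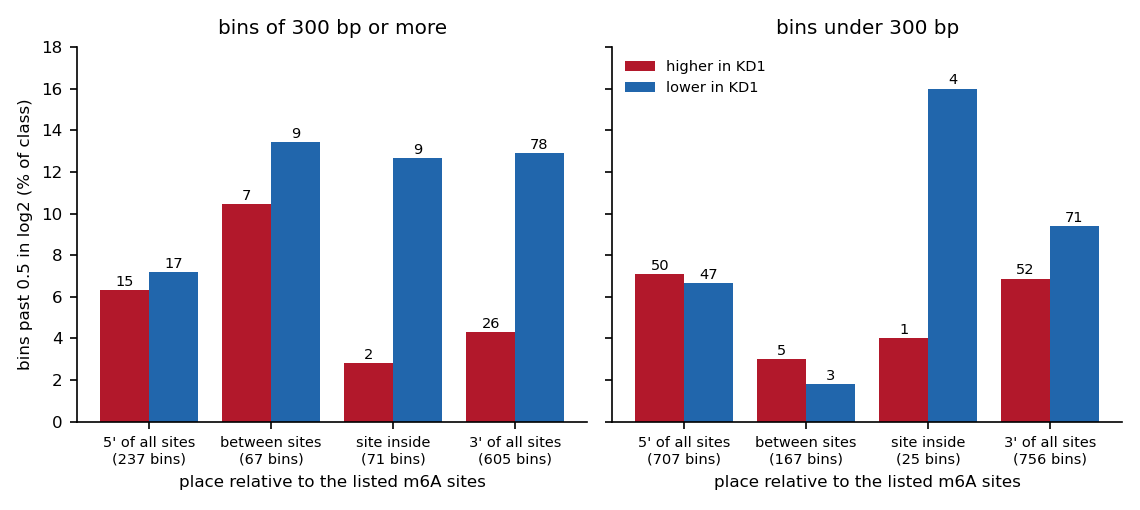
Percentage of bins past 0.5 in log2 that were higher or lower in KD1, by place relative to the listed m6A sites of the model, for bins of 300 bp or more (left) and under 300 bp (right). Numbers over the bars count the bins past 0.5; on the left, 26 bins 3′ of all sites were higher and 78 lower.

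Bins were further divided by their place among the listed bins of their model. The 449 bins that were 3′-most had 26 higher and 43 lower with a median of -0.09. The 449 that were 5′-most had 31 higher and 46 lower with a median of 0.00. Their median lengths were 576 bp and 184 bp. At 300 bp or more, the 3′-most had 10 higher and 30 lower, and the 5′-most 10 higher and 20 lower. Under 300 bp, the 3′-most had 16 higher and 13 lower, and the 5′-most 21 higher and 26 lower. In KD2 these shorter bins had 19 higher and 32 lower 3′-most, and 36 higher and 34 lower 5′-most. The 187 models with 1 listed bin had 17 higher and 31 lower, a share of 25.7% past 0.5. That share was 17.1% of the 5′-most, 15.4% of the 3′-most and 15.0% of all bins. In KD2 the 3′-most bins had 33 higher and 75 lower, the 5′-most 53 higher and 60 lower, and the lone bins 12 higher and 34 lower. The KD2 shares past 0.5 were 24.1%, 25.2% and 24.6%, beside 21.7% of all bins. The lone bins thus did not stand out in KD2. Models with 1 listed site had 71 higher and 135 lower of 1223 bins in KD1 (16.8% past 0.5), beside 15.0% of all bins. Those with 2 sites had 30 higher and 47 lower of 668 (11.5%). Those with 3 or more sites had 57 higher and 56 lower of 744 (15.2%). By strand, 80 bins were higher and 123 lower of 1229 on the plus strand (16.5%). On the minus strand 78 were higher and 115 lower of 1406 (13.7%).

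The share past the size was lower in joined than in single-gene models. Of 1029 bins in the 126 joined models, 51 were higher and 63 lower past 0.5 (11.1%), and of 1606 bins in the 510 single-gene models 107 were higher and 175 lower (17.6%). The medians were -0.02 and -0.05. In KD2 the joined models had 46 higher and 130 lower bins, and the single-gene models 159 higher and 237 lower. Because usage is computed within a model, a difference in the level of 1 joined gene also moves the bins of its partner, and these cannot be told apart from splicing here.

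Both values beyond 5 in absolute log2 in KD1 were in joined models. DCUN1D3andERI2andTHUMPD1 had -7.79 in KD1 and -2.15 in KD2 at bin 32 (chr16:20802100-20802171, minus strand), and -2.39 in KD1 and -8.03 in KD2 at the abutting bin 33. The 2 bins therefore swapped their order between the knockdowns. C11orf82andRPL7AP54 had -6.50 in KD1 and -1.50 in KD2 at bin 26 (chr11:82668456-82669319, plus strand), its only listed bin. At the other end, ARL17AandARL17B, which holds near-identical gene copies, had 1.53 in KD1 and 1.50 in KD2 at bin 26. ZNF318andCRIP3 had 1.21 in KD1 and 1.13 in KD2 at bin 50, and KIAA0100andSGK494andSPAG5 had 1.03 in KD1 and 0.75 in KD2 at bin 150.

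Some joined models fell into 2 blocks along the transcript. In KIF1BandPGD, which names a kinesin motor and an enzyme of the pentose phosphate pathway, the first 42 listed bins lay between 0.31 and 0.73 in KD1 and the last 7 between -0.37 and -0.27. In KD2 the medians of the same blocks were -0.08 and 0.04. GALTandIL11RA, an enzyme of galactose metabolism and an interleukin receptor chain, had 5 bins between -0.36 and -0.30 and then 6 between 0.22 and 0.76 in KD1, with block medians of -0.45 and 0.83 in KD2. COQ4andSLC27A4 had 6 bins between 0.17 and 0.55 and then 6 between -0.37 and -0.14 in KD1, with block medians of 0.47 and -0.10 in KD2. ATF2andCHN1 had 14 bins from -0.69 to -0.01 and then 21 from 0.02 to 0.77 in KD1, with block medians of -0.25 and 0.23 in KD2.

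Such blocks were not a feature of joined models alone. Among models with 6 or more listed bins and none at 0, 12 of 57 joined models changed side once with 3 or more bins on each side, and 14 of 68 single-gene models did. C18orf10, described above, is one of the 14. AGAP3, an ARF GTPase-activating protein, had 6 bins between -0.47 and -0.33 and then 7 between 0.07 and 0.15 in KD1, with block medians of -0.22 and 0.05 in KD2. MAPK9 had 6 bins between 0.16 and 0.92 and then 7 between -0.21 and -0.12 in KD1, with block medians of 0.10 and -0.04 in KD2. VAPB, a tether of the endoplasmic reticulum, had 4 bins between 0.06 and 0.11 and then 4 between -0.58 and -0.35 in KD1, with block medians of 0.07 and -0.20 in KD2.

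Genes were next described by list, those of RNA processing first. In KD1, 6.00% of all bins were higher and 9.03% lower, and in KD2 7.78% were higher and 13.9% lower. These shares stand beside every list below. A joined model was counted in full when any of its genes was on the list. Its bins may therefore belong to a partner gene outside the list, and they were not assigned to genes. Percentages in brackets are the higher and the lower share of a list's bins in KD1. The list of SR and SR-related proteins had 0 higher and 10 lower of 47 bins in 9 models (0% and 21.3%), with a median of -0.33. Many SR proteins bind exonic enhancers, but the list also holds other genes such as SRRT. Its single-gene models had 0 higher and 4 lower of 20 bins, with a median of -0.205. In KD2 the same list had 4 higher and 6 lower and a median of -0.01, so the lean of KD1 was not seen there. The 10 lower bins of KD1 came from 3 models, with 6 of them from the joined model C7orf55andLUC7L2. Those 6 lay between -1.17 and -0.73 in KD1 and between 0.25 and 0.32 in KD2. They lie at chr7:139025219-139025365, and whether they belong to LUC7L2 or to its partner C7orf55 was not determined. SRRT, which links the cap-binding complex to RNA processing, had -1.30 in KD1 and -1.19 in KD2 at bin 62, of 1 bp, and ACIN1 had -0.56 in KD1 and -1.70 in KD2 at bin 1, of 8 bp.

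Of 27 bins in 10 core spliceosome models, 2 were higher, in PRPF8 and TXNL4A, and 4 lower (7.41% and 14.8%). In KD2 2 were higher and 2 lower. SNRNP70, the U1 70K protein, had -0.73 in KD1 and -0.32 in KD2 at bin 29, and SF1, the branch point binding protein, had -0.51 in KD1 and -0.09 in KD2 at bin 49. The hnRNP list had 2 higher and 2 lower of 38 bins in 8 models in KD1 (5.26% each). In KD2 it had 2 higher and 1 lower. HNRNPH3 had 0.60 in both knockdowns at bin 54. Other RNA-binding splicing regulators had 1 higher and 5 lower of 75 bins in 14 models in KD1 (1.33% and 6.67%). In KD2 they had 3 higher and 7 lower. MSI2, an RNA-binding protein of stem cells, was the higher one in KD1, with 0.71 in KD1 and 0.18 in KD2 at bin 19. CELF1 had -0.60 in KD1 and 0.10 in KD2 at bin 10, and DDX5, an RNA helicase, had -0.50 in KD1 and -0.33 in KD2 at bin 1.

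The list of m6A writers, erasers and readers had 3 bins, in HNRNPA2B1 and HNRNPC, hnRNPs also described as readers, and 0 of them were past 0.5 in KD1. HNRNPA2B1 had -0.23 and 0.34 in KD1 at bins 42 and 1, and bin 1 had 1.43 in KD2. HNRNPC had 0.17 in KD1 and 0.07 in KD2 at bin 51. The polyadenylation, export and decay list had 2 higher and 5 lower of 59 bins in 9 models in KD1 (3.39% and 8.47%). In KD2 it had 1 higher and 6 lower. Its single-gene models held 15 of the bins, with 1 higher and 2 lower in KD1. The other lower bins lay in NXF1andTMEM223 and SHBandMCART1andEXOSC3 and may belong to a partner gene. FIP1L1, a subunit of the polyadenylation machinery, had -0.69 in KD1 and -0.13 in KD2 at bin 68.

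The lists that follow are again set beside the 6.00% higher and 9.03% lower of all bins in KD1. Among genes of translation, the large ribosomal subunit had 1 higher and 6 lower of 63 bins in 9 models (1.59% and 9.52%). The small subunit had 2 higher and 2 lower of 70 bins in 9 models (2.86% each). In KD2 the large subunit had 0 higher and 12 lower bins, and the small subunit 1 higher and 6 lower. Besides RPL34 and RPL31, RPL13andSNORD68 had -0.98 in KD1 and -0.30 in KD2 at bin 39, and RPS10andNUDT3 had -0.92 in KD1 and -1.08 in KD2 at bin 49. Ribosomal protein genes have many processed copies, so their values are uncertain where reads could be split. Translation factors had 3 higher and 2 lower of 65 bins in 9 models (4.62% and 3.08%), and 2 of the higher were EIF3K bins. In KD2 translation factors had 1 higher and 21 lower bins, a count unlike that of KD1. EIF4G1, the scaffold of the cap-binding complex, had 0.53 in KD1 and 0.65 in KD2 at bin 51. Mitochondrial ribosome genes had 0 higher and 1 lower of 19 bins in KD1 (0% and 5.26%), and 0 higher and 2 lower in KD2. The lower bin of KD1 was MRPS11 bin 10, with -0.99 in KD1 and -1.03 in KD2.

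Metabolic genes had bins past 0.5 in both directions. Glycolysis, lactate and pyruvate genes had 5 higher bins, in LDHA and BSG, and 3 lower of 38 bins in 6 models (13.2% and 7.89%). KD2 had the same counts. The lower bins were in GPIandPDCD2L (-1.14 in KD1 and -0.88 in KD2 at bin 21), ALDOA and BRP44L. ALDOA, fructose-bisphosphate aldolase, had -0.89 in KD1 and -0.28 in KD2 at bin 40. BRP44L, now MPC1 of the mitochondrial pyruvate carrier, had -0.78 in KD1 and -1.27 in KD2 at bin 19, of 4 bp. The respiratory chain and ATP synthase list had 2 higher and 3 lower of 56 bins in 13 models (3.57% and 5.36%). Its single-gene models held 11 of the bins, with 1 higher, that of FDXR, and 2 lower. FDXR was counted in the list although it is described above as the mitochondrial ferredoxin reductase. The other higher bin lay in the joined model ATP5OandCRYZL1andDONSON and may belong to a partner gene. Other mitochondrial genes had 1 higher and 5 lower of 26 bins in 7 models (3.85% and 19.2%). In KD2 the respiratory chain list had 4 higher and 4 lower, and the other mitochondrial list 2 higher and 7 lower. BCAT2, a branched-chain amino acid transaminase, had 3 of those lower bins, between -0.72 and -0.60 in KD1 and between -1.26 and -0.83 in KD2. IMMP1L, a mitochondrial inner membrane peptidase, had the higher one, with 0.79 in KD1 and 0.97 in KD2 at bin 29.

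DNA repair genes had 0 higher and 11 lower of 47 bins in 12 models in KD1 (0% and 23.4%). In KD2 they had 4 higher and 12 lower. Of the 3 models involved in KD1, DDB2 held 9 of the 11 bins, so the count is largely that of 1 gene. FANCI, of the Fanconi anaemia pathway, had -0.70 in KD1 and -0.47 in KD2 at bin 83. Chromatin regulators had 6 higher and 8 lower of 80 bins in 24 models in KD1 (7.5% and 10%). In KD2 they had 1 higher and 14 lower. Single-gene models held 57 of these bins, with 2 higher in KD1, in JMJD4 and MBD5, and 6 lower. JMJD4 was counted in the list although it is described above as a hydroxylase of the translation release factor. KDM1A, a histone demethylase, had -0.59 in KD1 and -0.53 in KD2 at bin 38. The joined model S1PR2andDNMT1 had 3 higher bins between 0.68 and 1.01 in KD1, which lay between 0.26 and 0.39 in KD2. Whether they belong to DNMT1 or to its partner S1PR2 was not determined. Zinc finger transcription factors had 12 higher and 6 lower of 54 bins in 20 models (22.2% and 11.1%), and 7 of the 12 were ZNF655 bins. In KD2 the list had 9 higher and 11 lower bins, so higher bins did not outnumber lower ones there. ZNF496 had -1.02 in KD1 and -0.91 in KD2 at bin 8, and ZNF678 had 0.66 in KD1 and 0.98 in KD2 at bin 24.

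Signalling kinases and their regulators had 7 higher and 0 lower of 39 bins in 7 models in KD1 (17.9% and 0%). Their median was -0.07 in KD1, and in KD2 they had 5 higher and 1 lower. The 7 came from 3 models, MAPK9, C11orf59 and MAP3K7. MAPK9 bins 13 and 16 had 0.58 and 0.61 in KD1 but -0.05 and -0.09 in KD2. MAP3K7, the kinase TAK1, had 0.82 in KD1 and 0.31 in KD2 at bin 25. Bins 1 to 3 of C11orf59 lay between 0.55 and 0.72 in KD1 and between 0.51 and 0.93 in KD2.

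Ubiquitin and proteasome genes had 6 higher and 14 lower of 121 bins in 34 models in KD1 (4.96% and 11.6%). PSMB7 gave 4 of the lower, and the shares of all bins were 6.00% and 9.03%. In KD2 the list had 12 higher and 25 lower. FZR1, the CDH1 activator of the ubiquitin ligase that ends mitosis, had 0.83 in KD1 and 1.42 in KD2 at bin 7, 26 bp from a listed m6A site. It was also the 1 bin past 0.5 of 24 in the cell cycle list in KD1 (4.17%). In KD2 that list had 2 higher and 3 lower bins. UBE2N, a conjugating enzyme for lysine-63 chains, had -0.90 in KD1 and -0.39 in KD2 at bin 1. Membrane trafficking genes had 3 higher and 13 lower of 86 bins in 22 models in KD1 (3.49% and 15.1%). In KD2 they had 4 higher and 27 lower. DNM1, a dynamin, had -0.77 in KD1 and -0.90 in KD2 at bin 46, and CLTC, the clathrin heavy chain, had -0.67 in KD1 and -0.54 in KD2 at bin 61. SEC22B, a vesicle fusion protein, had 0.67 in KD1 and 0.38 in KD2 at bin 17.

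Actin and myosin genes had 9 higher and 3 lower of 59 bins in 8 models in KD1 (15.3% and 5.08%). In KD2 they had 13 higher and 8 lower. The higher bins of KD1 were in ACTG1, ENAH and MPRIP, and 4 of the 9 were the abutting ACTG1 bins. MPRIP, which binds myosin phosphatase, had 0.87 in KD1 and 0.78 in KD2 at bin 5. MYH10, non-muscle myosin IIB, had -0.92 in KD1 and -0.20 in KD2 at bin 7. Nuclear transport genes had 1 higher bin, that of RAN, of 6 in 5 models in KD1 (16.7%). In KD2 they had 0 higher and 1 lower. KPNA2, an importin alpha, had -0.31 in KD1 and 0.07 in KD2 at bin 25, and RANGAP1, which activates RAN's GTPase, had -0.38 in KD1 and -0.48 in KD2 at bin 54.

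**Figure D5:**
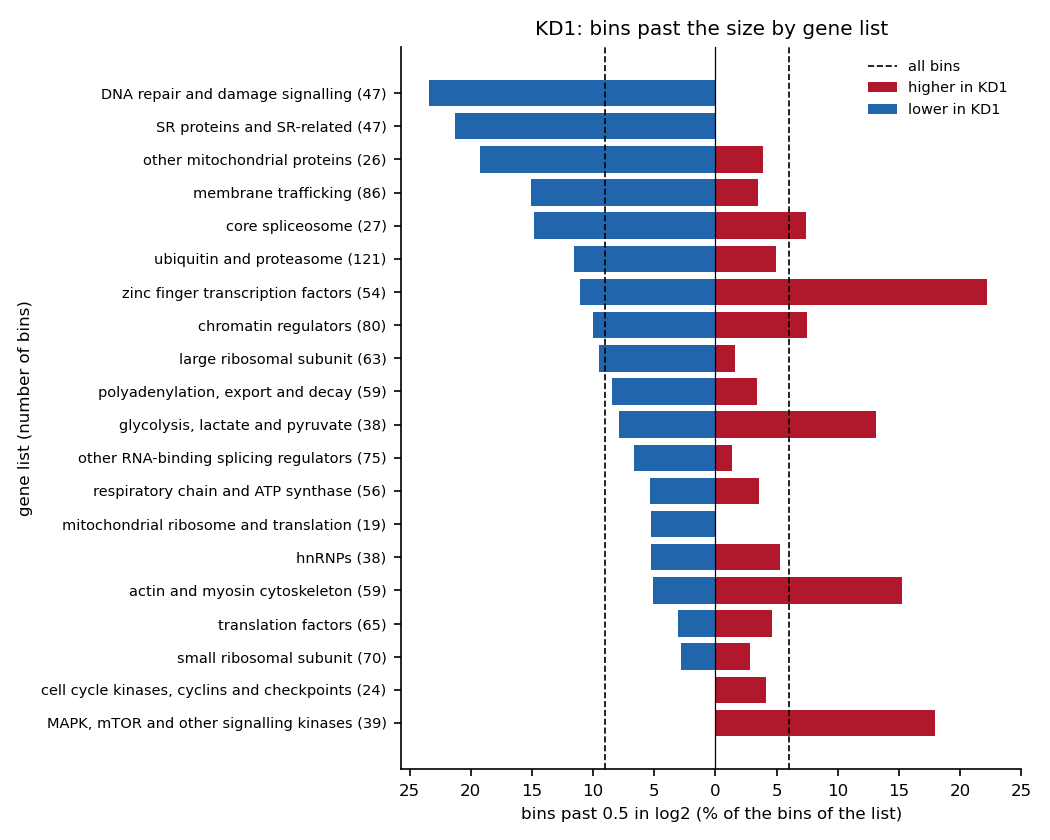
Percentage of the bins of each gene list past 0.5 in log2 that were higher (right of 0) or lower (left of 0) in KD1, for lists of at least 10 bins, with the number of bins in brackets. Dashed lines are the 6.00% higher and 9.03% lower of all bins. All bins of a joined model are counted, including any of a partner gene outside the list. The SR and DNA repair lists have 0 higher bins and the signalling kinase list 0 lower bins in KD1, each with its bins past 0.5 in 3 models. In KD2 these lists had bins past 0.5 in both directions. The KD1 bins past 0.5 of the SR list were in C7orf55andLUC7L2, SRRT and ACIN1.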

How the data were processed

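Stranded mRNA libraries of KD1 and control cells were sequenced together on 1 flow cell, per the labels. The deposited values are log2 ratios of exon usage, control over knockdown, made by the authors with DEXSeq, per the sample descriptions. Tools listed in the submitters' processing notes are TopHat 1.1.4 and Bowtie 1.0.0 for the build hg19, with Trimmomatic, Cuffdiff and Cufflinks, without their roles. The rule by which bins were listed, the normalization and the counts are not stated in the material used here, so depth and precision are unknown.

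The sign was turned, and bins were classed by length, place and distance to the listed m6A positions of their own model, with coordinates 1-based and inclusive. Counts past 0.5 and medians were computed with Python 3.11.15, pandas 2.3.3 and numpy 2.4.6, and figures with matplotlib 3.10.9. The scripts were tested on simulated data. No test was run, since the table holds 1 ratio per bin.

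Named bins were the 15 highest and 15 lowest of single-gene models at 20 bp or more, up to 3 shorter ones, up to 3 per gene list, 5 per side with a site inside, 3 per side in joined models, and the 5 models with the widest range. Others were chosen after their values were seen: the stretches, blocks, models with bins on both sides and further list bins. The bins and the 23 gene lists were chosen with earlier results of these data known. Classes by side, place and the 300 bp limit were added after the table was examined, and a few mismatched genes were then taken out of the lists. Of 780 symbols, 676 were current and 87 matched 1 older symbol in RefSeq's table of GRCh38.p14, used for names only. Alternatives were other sizes, centring, single-gene models and the KD2 column.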

Additional observations from a re-analysis of the deposited data

How the results depend on the processing

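The counts depend on the size chosen: 1058 bins were past 0.25 and 61 past 1, against 396 past 0.5. The share of bins past the size that were higher was 27.9% at a size of 1 and 45.6% after centring on the median of all bins, against 39.9% as reported. At a size of 1 it was 0% both for bins of 300 bp or more and for those of them 3′ of all sites. The overall value was -0.0536 as a mean and -0.064 as the KD2 median, against a KD1 median of -0.037.

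From shortest to longest class, the shares past a size of 1 were 4.96%, 1.72%, 2.66%, 2.33% and 1.19%, and those past 0.5 in KD2 were 25.2%, 20.9%, 19.5%, 25.04% and 20.4%. In single-gene models 17% of bins from 100 bp to under 300 bp were past 0.5. Joined models had 1.36% past 1 in KD1 and 17.1% past 0.5 in KD2. Bins named by rule that lay on the other side of 0 in KD2 were C2CD3 bin 80 (0.53), NDUFS8 bin 33 (0.19), C7orf55andLUC7L2 bins 4 and 5 (0.29 and 0.27), RBM26 bin 76 (0.45), HP1BP3 bin 32 (-0.18) and RAN bin 17 (-0.58). Others described that did so included CELF1 bin 10, MAPK9 bins 13 and 16, ARIH2 bins 21 to 25, ENAH bin 24 and MBD5 bin 18. The within-model difference of longer and shorter bins, -0.0415 as reported, was -0.014 at a limit of 100 bp, -0.0595 at 1000 bp, -0.07 in single-gene models and -0.0718 in KD2. The cause of these differences was not tested.

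No paired analysis was possible because the table holds 1 ratio per bin and no value per library, and for the same reason no replicate was left out. KD1 and KD2 share their control libraries, so values alike in both do not show that a difference is free of control error. Depth per bin is unknown, and the reads behind short bins were not counted here.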
